A study of Mus musculus with 4 samples.

Results

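The libraries of mice that received no bleomycin were compared between the genotypes, PBS-HPS1 against PBS-WT. They are 2 of the 4 libraries of the study, and their labels define the groups. Hermansky-Pudlak syndrome is a recessive disorder of lysosome-related organelles, with albinism, a bleeding tendency and, in some forms, pulmonary fibrosis. HPS1 and HPS4 form BLOC-3, a complex that activates the small GTPases Rab32 and Rab38 and so directs cargo to melanosomes, platelet dense granules and the lamellar bodies of alveolar type II cells. Group 2 innate lymphoid cells (ILC2s) are tissue lymphocytes without antigen receptors that answer alarmins such as IL-33 with type 2 cytokines, and the comparison asks how the RNA of the sorted cells differed with Hps1 loss before any injury.

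PBS-WT came from C57BL/6 mice given PBS, and PBS-HPS1 from Hps1-/- mice given PBS. Both strains came from a commercial supplier. The methods describe the mice as congenic with C57BL/6 and do not say that littermates were used. BLEO-WT and BLEO-HPS1 are the same genotypes after bleomycin, a drug that injures the lung epithelium. In each group, ILCs were enriched from dissociated lungs, sorted by flow cytometry for Thy1.2, ICOS and T1/ST2 in the absence of lineage antigens, and kept in culture with IL-2 until RNA was extracted. RNA came from 22405 cells in PBS-WT and from 38873 in PBS-HPS1, fewer than the 84166 of BLEO-WT and the 128647 of BLEO-HPS1. The methods do not give the number of mice, their age, the day or the route of treatment for these 4 libraries. Every group has 1 library, so there is no replicate check: ratios are differences between libraries, no p-value is given, and the 95% intervals printed are exact Clopper-Pearson intervals that cover counting error only. Expression is given as CPM, read counts scaled to a common library size after TMM normalization, and ratios are log2 of PBS-HPS1 over PBS-WT with a prior count of 2.

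The libraries held 72513619 reads in genes for PBS-WT and 77703133 for PBS-HPS1, and 3 reads correspond to 0.0385 and 0.0303 CPM. Reads were found on 30534 genes in PBS-WT and on 34699 in PBS-HPS1. Xist, the RNA of the inactive X chromosome, was at 0.128 and 0.0606 CPM and the Y-linked Ddx3y at 82.1 and 94.0 CPM, so both libraries had the pattern of male mice. The ILC2 label was checked against its markers. Gata3, the transcription factor that ILC2s depend on, was at 38.4 and 39.1 CPM, Il1rl1, which encodes T1/ST2, at 40.9 and 39.9, Icos at 79.9 and 77.5, and Thy1 at 306 in PBS-WT and 206 in PBS-HPS1. Genes of cells that the sort should remove were present as well. Per kilobase of transcript, Lyz2, the lysozyme of myeloid cells, was at 7164 CPM in PBS-WT and 4623 in PBS-HPS1, against 19.7 and 20.1 for Gata3. Sftpc, the surfactant protein of alveolar type II cells, was at 816 and 538 CPM and the T cell receptor subunit Cd3e at 83.5 and 67.6. In such bulk RNA, fewer cells of a type and less RNA per cell cannot be told apart.

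Hps1 was lower in PBS-HPS1. The gene (ENSMUSG00000025188, protein coding) lies on chromosome 19 of GRCm38 between 42755105 and 42779978 on the minus strand. It had 2989 reads in PBS-WT and 1647 in PBS-HPS1, or 38.3 and 16.6 CPM. Its log2 ratio was -1.20 (95% interval -1.29 to -1.12). Reads thus remained on the gene in the knockout library, and the counts do not show on which exons. Hps4, which encodes the partner subunit of BLOC-3, was at 32.7 and 27.5 CPM, a ratio of -0.25 that lay close to the median of all genes, -0.20.

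Of the 49315 genes in the table, 14283 had at least 1 CPM in either PBS library and were compared. With PBS-HPS1 against PBS-WT, 708 genes, or 4.96%, were at least 2-fold apart. Higher by 2-fold or more in PBS-HPS1 were 281 genes (1.97%), and lower by as much were 427 (2.99%). This split depended on the scaling, since the higher genes were 39.7% of those past the threshold with TMM factors, 50.9% with TMM factors from the PBS libraries alone, 60.0% with upper-quartile factors and 67.8% with total counts. The median of all genes was -0.20 with TMM and 0.06 with total counts, so the medians of gene groups below are read against -0.20. At 4-fold, 32 genes were higher and 143 lower, and the lower side therefore held most of the wide differences.

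**Figure D1:**
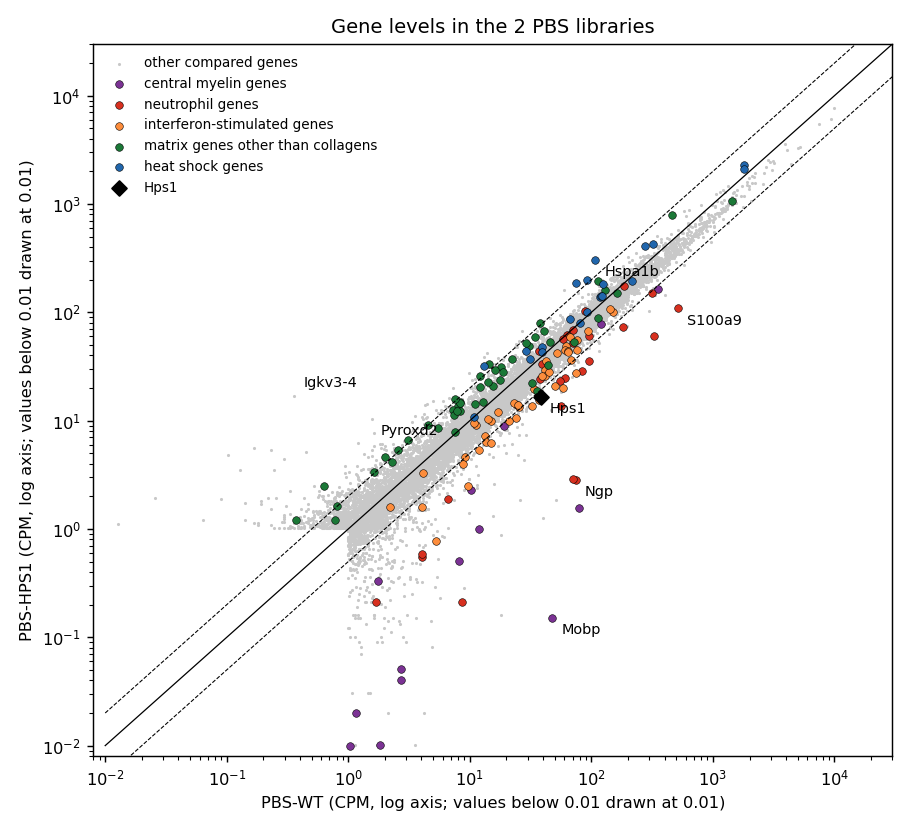
Levels of the 14283 compared genes in PBS-WT (x axis, CPM) and PBS-HPS1 (y axis, CPM), both on log axes with 1 point a gene. The solid line marks equal levels and the dashed lines 2-fold. Central myelin genes such as Mobp (47.6 and 0.151 CPM) and neutrophil genes such as Ngp (74.8 and 2.86 CPM) lie far below the dashed lines, while Hspa1b (108 and 304 CPM) lies above them.

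Ratios went with transcript length. Over 14260 genes with a known length, the median ratio was -0.32 among the shortest transcripts, the first of 10 bins of equal size, and 0.02 among the longest, the last bin. The rank correlation of the ratio (Spearman's rho) was 0.329 with length and -0.074 with GC content over 11149 genes of mean log2 CPM above 2, a description over genes that share 2 libraries. A loess correction for both left 260 genes higher and 409 lower, of which 237 and 392 were past the threshold without it. Gene groups of short transcripts followed this pattern. The 82 cytosolic ribosomal protein genes had a median of -0.47 and a median transcript length of 689 bases, and 81 of them lay below the median of all genes. The 77 nuclear genes for subunits of oxidative phosphorylation also had a median of -0.47. By contrast the 40 genes for very long proteins, with a median transcript length of 7219 bases, had a median of 0.21. After the correction the medians were -0.36 for the ribosomal and the oxidative phosphorylation lists and 0.04 for the very long genes, against -0.21 for all genes, so each list kept its side. In each of these 3 lists 0 genes were 2-fold apart.

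**Figure D2:**
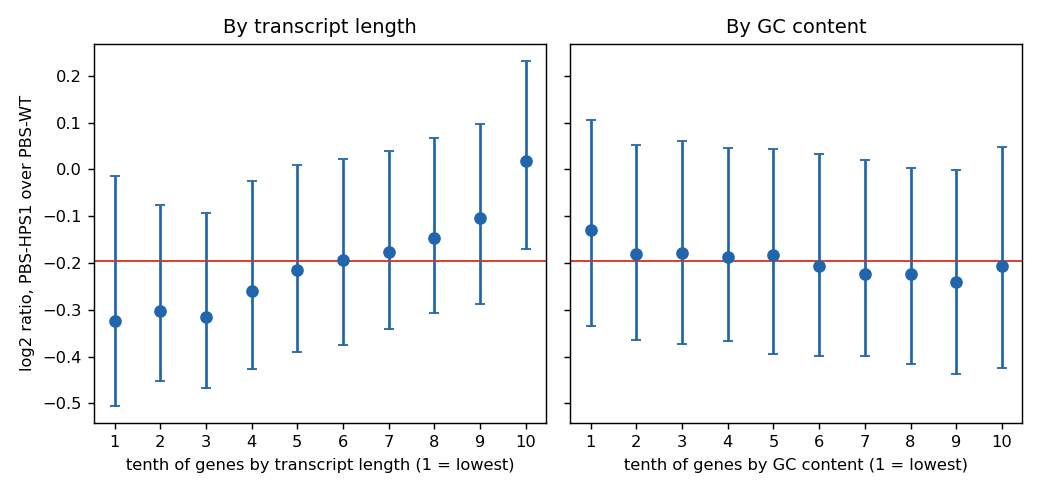
Median log2 ratio of PBS-HPS1 over PBS-WT (points) and interquartile range (bars) in 10 bins of equal size of 14260 genes ordered by transcript length (left) and by GC content (right), with the median of all genes as a red line. The median climbs from -0.32 to 0.02 with length and stays between -0.24 and -0.13 with GC content.

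Neutrophil genes were lower in PBS-HPS1. Of 30 such genes, 27 were compared, 16 were at least 2-fold lower (59.3%, against 2.99% of all genes) and 0 were 2-fold higher, with a median of -1.30. The granule proteins made during neutrophil development were furthest apart. Ngp, neutrophilic granule protein, was at 74.8 CPM in PBS-WT and 2.86 in PBS-HPS1, a ratio of -4.70 (-4.89 to -4.54). Ltf, the iron-binding lactoferrin of secondary granules, was at 70.0 and 2.87 CPM (-4.60), and Camp, the cathelicidin antimicrobial peptide, at 8.68 and 0.212 CPM (-5.20). Mpo, the myeloperoxidase of primary granules, was low in both, at 1.69 and 0.212 CPM.

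The calprotectin subunits S100a8 and S100a9, abundant in the cytosol of mature neutrophils, were at 325 and 517 CPM in PBS-WT and at 60.0 and 109 CPM in PBS-HPS1, ratios of -2.43 and -2.25. Receptors were less far apart than Ngp, Ltf and Camp: Cxcr2, the receptor for neutrophil-attracting chemokines, had a ratio of -1.45 and Csf3r, the receptor for the granulocyte growth factor G-CSF, -1.05. Ly6g, the neutrophil antigen of the lineage gate, was at 4.05 and 0.586 CPM. Some members had no such difference. Hdc, which makes histamine, and Il1r2, a decoy receptor for IL-1, had ratios of 0.22 and 0.25, and both encode proteins that other leukocytes make too. PBS-WT had the highest level of the 4 libraries for 21 of the 27 genes. The median was -1.28 after the correction for length and GC content and -1.05 with total counts, under which 15 genes were 2-fold lower.

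Granulocytes of other kinds had smaller differences. The 19 compared eosinophil, basophil and mast cell genes had a median of -0.68, with 2 at least 2-fold lower (10.5%, against 2.99% of all genes). They were Prg2, the major basic protein of eosinophil granules (2.14 and 0.485 CPM), and Alox15, a lipoxygenase (16.8 and 7.97 CPM). Prss34, a serine protease of basophils and mast cells that is not on that list, was among the 15 lowest protein-coding genes, at 26.1 CPM in PBS-WT and 1.87 in PBS-HPS1, a ratio of -3.78 (-4.03 to -3.58). Cpa3, the carboxypeptidase that mast cells and basophils store, had a ratio of -0.95.

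Monocyte genes were lower too. Of 29 compared genes of monocytes and interstitial macrophages, 5 were at least 2-fold lower (17.2%, against 2.99% of all genes) and 0 higher. The median was -0.72. Plac8, highly expressed in classical monocytes, was at 298 CPM in PBS-WT and 103 in PBS-HPS1, a ratio of -1.53. Ccr2, the receptor that brings monocytes out of the bone marrow, was at 332 and 144 CPM (-1.20), Ly6c2 at 139 and 62.5 (-1.16) and the fractalkine receptor Cx3cr1 at 116 and 52.3 (-1.15). The complement genes C1qa, C1qb and C1qc, which mark interstitial macrophages, had ratios between -0.96 and -0.92, and Cd14, a co-receptor for lipopolysaccharide, -0.01. Under total counts 1 of the compared genes of this list, Plac8, was 2-fold lower. Alveolar macrophage genes did not share the difference, with a median of -0.21 over 24 genes, equal to within 0.02 of all genes.

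The antigen presentation genes went the same way as monocyte genes. The 11 MHC class II genes had a median of -0.84, with 10 below the median of all genes and 0 past 2-fold. H2-Aa, H2-Ab1 and H2-Eb1, the chains that present peptide, were at 1334, 2073 and 1753 CPM in PBS-WT and at 674, 1072 and 932 CPM in PBS-HPS1. Cd74, the invariant chain, was at 4391 and 2353 CPM, and Ciita, the transactivator of these genes, at 99.3 and 59.0 CPM. H2-Ob, which B cells express, was the exception with a ratio of 0.19. Of 22 compared chemokine receptor genes, 4 were at least 2-fold lower (18.2%, against 2.99% of all genes), namely Cxcr2, Ccr2, Cx3cr1 and Cxcr6, the receptor for CXCL16 (71.9 and 32.4 CPM). With total counts 1 of them was.

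Interferon-stimulated genes (ISGs) were lower as well. ISGs are induced when type I or III interferon activates a complex with STAT2 and IRF9, which binds the interferon-stimulated response element (ISRE) in their promoters. All 44 listed genes were compared, 14 were at least 2-fold lower in PBS-HPS1 (31.8%, against 2.99% of all genes) and 0 were higher, with a median of -0.67, and 42 lay below the median of all genes. To show the element in the promoters concerned, the upstream sequence of the 3 lower genes with a match and the highest CPM is given, 5′ to 3′ on the gene's strand from the RefSeq promoter table on GRCm38.p6. Capitals mark the core of the ISRE, taken as GAAA and GAAA with any 2 bases (NN) between them, on either strand, and each stretch lies before the start site.
Oas3, chr5:120777685-120777774, minus strand: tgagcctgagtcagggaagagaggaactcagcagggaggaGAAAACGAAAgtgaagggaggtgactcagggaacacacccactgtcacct
Oas1a, chr5:120907526-120907585, minus strand: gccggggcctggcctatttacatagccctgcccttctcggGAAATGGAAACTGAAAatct
Rsad2, chr12:26456523-26456612, minus strand: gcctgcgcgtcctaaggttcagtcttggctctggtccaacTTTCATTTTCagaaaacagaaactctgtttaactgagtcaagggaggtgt

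In Oas1a a pair of matches overlap, and in Rsad2 the match is on the other strand. The core was found in the 250 bases before the start in 978 of 32851 promoters of the table (2.98%) and in 367 of the 10557 compared genes with a promoter (3.48%). Among ISGs with a promoter it was found in 19 of 33, which were 8 of the 10 that were 2-fold lower and 11 of the other 23. A match describes these letters and does not show binding.

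Among the lower genes were the 2'-5' oligoadenylate synthetases, sensors of double-stranded RNA that switch on RNase L. Oas3 was at 75.3 CPM in PBS-WT and 27.3 in PBS-HPS1, a ratio of -1.46 (-1.53 to -1.40). Oas1a was at 37.1 and 15.6 CPM (-1.25), Oas1g at 5.31 and 0.768 (-2.75) and Oasl2, a family member that modulates RNA sensing, at 58.9 and 20.0 (-1.56). The Ifit genes, whose proteins bind foreign RNA, were lower together, Ifit3 at 14.8 and 6.23 CPM and Ifit1 at 8.75 and 3.96. Rsad2, the antiviral protein viperin, was at 21 and 9.89 CPM (-1.08), and Usp18, which dampens interferon receptor signalling, at 13.7 and 6.4 (-1.09). Genes for the signalling complex itself differed less: Irf9 had a ratio of -0.45 and Stat2 -0.16. Cxcl9, a chemokine that interferon gamma induces, was at 9.71 and 2.48 CPM. With total counts 8 of the 44 genes were 2-fold lower and the median was -0.43. Leukocyte groups that were lower in the same library (neutrophils and monocytes, above) express ISGs, and their part in this difference was not tested.

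**Figure D3:**
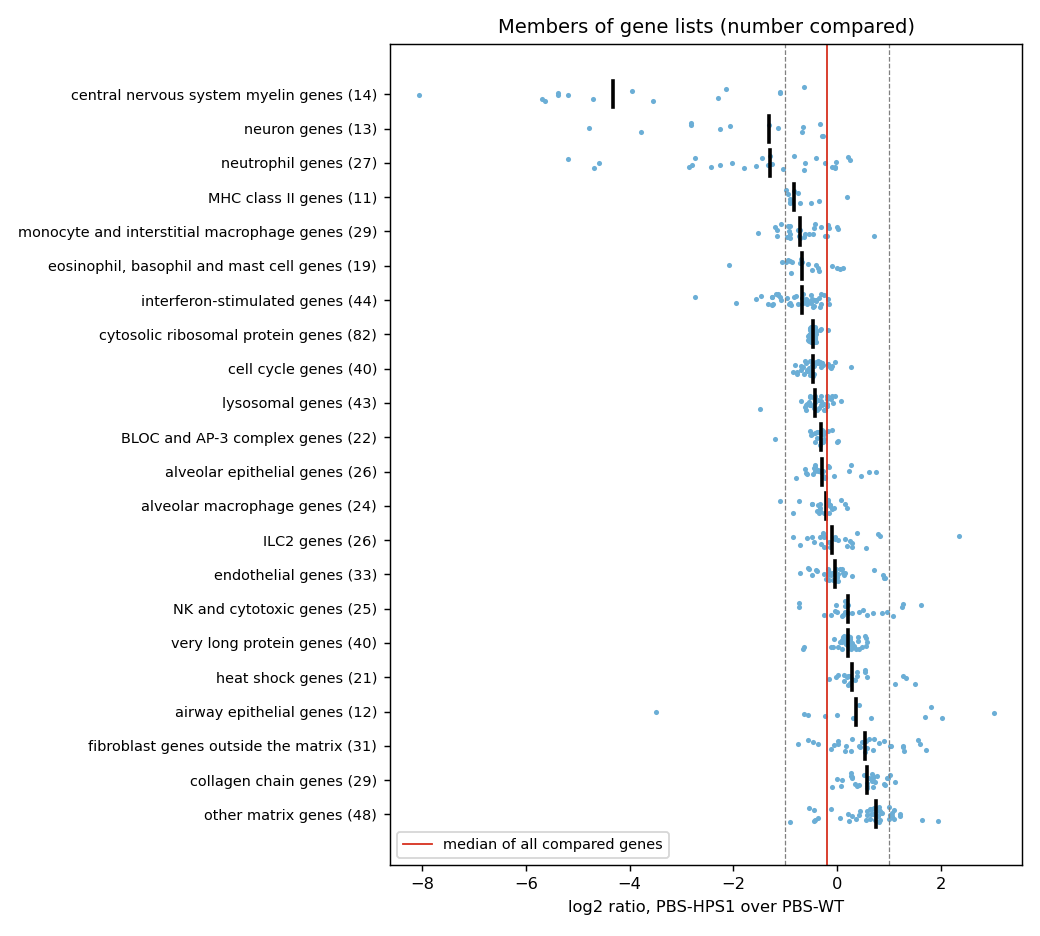
Log2 ratio of PBS-HPS1 over PBS-WT for each compared member (blue points) of 22 gene lists, with the list median as a black bar, the median of all compared genes (-0.20) as a red line and 2-fold as dashed lines. Myelin, neuron and neutrophil genes reach furthest to the left, and matrix, collagen and fibroblast genes lie to the right of the red line.

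A set of nervous system genes stood out in PBS-WT. This set was chosen after its values were seen, so its counts are a description. The reason was that genes such as Mobp, Kif5a, Mal, Slc1a2, Camk2a and Bcas1 were among the 15 lowest protein-coding genes. All of them are known from the brain, though not all from there alone. Of 14 genes of central nervous system myelin, 13 were at least 2-fold higher in PBS-WT (92.9%, against 2.99% of all genes). The median ratio was -4.33, also with a member without a read set at its bound. Mobp, a protein of compact myelin (ENSMUSG00000032517, chromosome 9 of GRCm38 from 120149707 to 120181484), had 3710 reads in PBS-WT and 15 in PBS-HPS1, or 47.6 and 0.151 CPM, and a ratio of -8.07 (-9.13 to -7.57). It was at 0.510 CPM in BLEO-WT and 0.158 in BLEO-HPS1, so PBS-WT alone was high.

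Mog, a surface antigen of oligodendrocytes, had 213 reads in PBS-WT and 5 in PBS-HPS1. Hapln2, a link protein of the nodes of Ranvier, had 80 reads in PBS-WT and 0 in PBS-HPS1, which makes it at least 33.9-fold higher in PBS-WT when set against 3 reads per library. Opalin had 90 and 2 reads (ratio -4.70, -8.90 to -3.94). Mbp, whose locus also gives transcripts in leukocytes, was at 353 and 164 CPM, a ratio of -1.11. Of 3 listed myelin genes of peripheral nerve, 2 were compared, Pmp22 and Prx, with ratios of 0.16 and 0.14. The other was below 1 CPM in both PBS libraries.

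Neuron and astrocyte genes were also higher in PBS-WT. Of 13 compared neuron genes, 8 were at least 2-fold lower in PBS-HPS1 (61.5%, against 2.99% of all genes). Kif5a, a kinesin motor of axonal transport, was at 51.5 CPM in PBS-WT and 1.85 in PBS-HPS1 (-4.78), Snap25, a protein of synaptic vesicle fusion, at 6.09 and 0.838 (-2.83) and Camk2a, a kinase of excitatory synapses, at 11.5 and 2.39 (-2.25). Tubb3 and Stmn2, both markers of neurons in general, had ratios of -0.27 and -0.34 and did not share the difference. Slc1a2, the glutamate transporter of astrocytes, was at 15.5 and 1.32 CPM (-3.53), and the imprinted noncoding RNA Meg3 at 24.9 and 4.81 (-2.37). The summed level of the 14 myelin genes was 662 CPM in PBS-WT and between 257 and 404 CPM in the other 3 libraries, of which Mbp and Cnp, a myelin enzyme also found outside the nervous system, made up most. No nervous tissue is named in the labels, and where these reads come from was not tested.

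**Figure D4:**
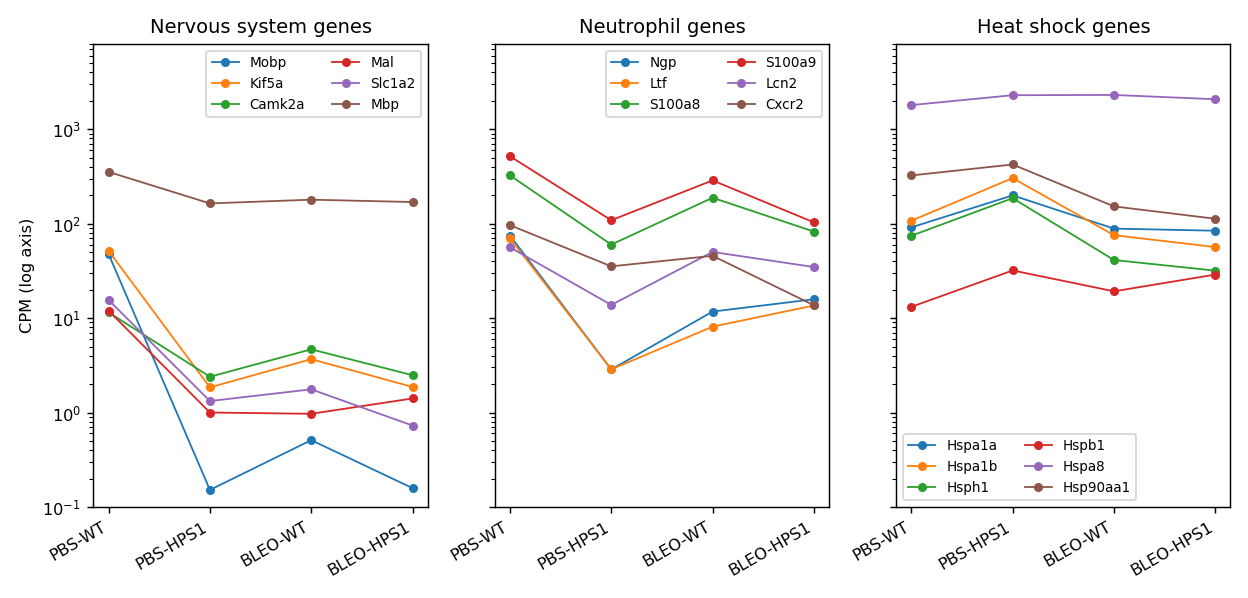
CPM (log axis) of 6 nervous system genes, 6 neutrophil genes and 6 heat shock genes in the 4 libraries, with 1 point a library and lines only joining the points of a gene. Mobp, Kif5a, Mal and Slc1a2 are high in PBS-WT alone, the neutrophil genes are highest in PBS-WT, and Hspa1a, Hspa1b, Hsph1 and Hspb1 are highest in PBS-HPS1.

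Immunoglobulin variable genes varied in both directions. Of 81 compared, 28 (34.6%) passed 2-fold upward in PBS-HPS1 and 36 (44.4%) downward, against 1.97% and 2.99% of all genes. The SD of their ratios was 3.33 against 0.75 for 2102 other genes of like CPM. Igkv3-4, a kappa light chain segment, had 28 reads in PBS-WT and 1660 in PBS-HPS1, a ratio of 5.45 (5.01 to 6.14), whereas Igkv4-74 had 1410 and 16 reads (-6.60). A few segments carried much of each library's total: the 5 with the most reads held 34.6% of all variable-gene reads in PBS-WT and 24.7% in PBS-HPS1. Near-identical segments can share reads, so single segments are uncertain. Of the 10 compared constant genes, 4 were at least 2-fold lower (40%, against 2.99% of all genes) and 1 higher (10%, against 1.97%). The summed level of the constant genes was 949 CPM in PBS-WT and 635 in PBS-HPS1. Ighm, the heavy chain of IgM, was at 573 and 273 CPM (-1.07), and the higher gene was Igha, the heavy chain of IgA, at 59.1 and 159 CPM (1.43). The other B cell and plasma cell genes had a median of 0.04, with 1 of 24 at least 2-fold lower and 0 higher.

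Extracellular matrix genes were higher in PBS-HPS1. Of 48 compared matrix genes other than collagens, 12 were at least 2-fold higher in PBS-HPS1 (25%, against 1.97% of all genes) and 0 lower, with a median of 0.74. Fbn1, the fibrillin of elastic microfibrils, was at 14.4 CPM in PBS-WT and 33.6 in PBS-HPS1, a ratio of 1.22 (1.12 to 1.32). Its transcript length was 10909 bases, and after the correction for length and GC content its ratio was 0.90, under 2-fold. Dcn, the proteoglycan decorin, was at 12.2 and 26.0 CPM (1.09), Fbln1, fibulin 1, at 7.61 and 16.0 (1.07) and Timp3, a matrix-bound inhibitor of metalloproteinases, at 38 and 79.5 (1.06). Fmod, fibromodulin, which shapes collagen fibrils, had 49 and 248 reads (1.95, 1.55 to 2.47). Of the 48 genes, 7 had a ratio below 0, the lowest at -0.91. Among the 7 were Fn1, fibronectin, at 1432 and 1058 CPM (-0.44), and Spp1, osteopontin (-0.37), both of which macrophages also express. The summed level of the matrix list was 3099 CPM in PBS-WT and 3391 in PBS-HPS1, with Fn1 the most abundant member in both.

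The 29 compared collagen chain genes had a median of 0.58, and all 29 lay above the median of all genes, but only Col23a1 and Col8a1 were 2-fold higher. Col1a1 and Col1a2, the chains of type I collagen, were at 38.2 and 45.3 CPM in PBS-WT and at 75.1 and 88.8 CPM in PBS-HPS1, ratios of 0.98 and 0.97. Lengths are medians over the annotated transcripts of a gene. The collagen list had a median of 4791 bases, but Col3a1 had 737, and the correction moved its ratio from 0.57 to 0.68. After the correction for length and GC content the list median was 0.48, 0 of the 29 were 2-fold higher, and 8 of the matrix genes were. With total counts 7 of the 29 were. Fibroblast genes outside the matrix were higher too, 8 of 31 being at least 2-fold higher (25.8%, against 1.97% of all genes) with a median of 0.53. Scara5, a ferritin receptor of adventitial fibroblasts, was at 1.87 and 5.55 CPM (1.56), Cd248, endosialin, at 1.55 and 4.74 (1.59), Clec3b, tetranectin, at 6.70 and 16.2 (1.27) and Pdgfra, the receptor that marks lung fibroblasts, at 16.4 and 31.0 (0.91). Pi16 and Ly6a, also of adventitial fibroblasts, had ratios of -0.38 and -0.46. Their sum, 1783 CPM in PBS-WT and 1607 in PBS-HPS1, was not higher, and Tgfbi (831 and 491 CPM), which macrophages also express, was its largest part.

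Of the 10 matrix genes that the study picked from these 4 libraries, 3 were at least 2-fold higher in PBS-HPS1, Scara5, Fbn1 and the metalloproteinase inhibitor Timp1, and the median was 0.94. That list was picked on these samples and is not independent evidence of its direction. Endothelial genes, with a median of -0.04 over 33 genes, and alveolar epithelial genes, with -0.30 over 26, had 0 members 2-fold apart. Airway epithelial genes were split. Scgb3a1 and Scgb3a2, secretoglobins of club and goblet cells, were at 0.218 and 1.63 CPM in PBS-WT and at 1.95 and 5.80 in PBS-HPS1, and Bpifa1, an antimicrobial airway protein, at 4.41 and 14.4 (1.70). Scgb1a1, the main secretoglobin of club cells, was at 41.8 and 55.8 CPM, and Krt5, a keratin of basal cells, at 1.98 and 0.151.

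Heat shock genes were higher in PBS-HPS1. This list was also written after values were seen, because Hspa1b, Hsph1 and Hspb1 are among the 15 highest protein-coding genes. All 21 members lay above the median of all genes, 4 were at least 2-fold higher, and the median was 0.29. Hspa1b, an inducible Hsp70 chaperone (ENSMUSG00000090877, chromosome 17 of GRCm38 from 34956436 to 34959238), was at 108 CPM in PBS-WT and 304 in PBS-HPS1, a ratio between 1.47 and 1.54 by its interval. Its near-identical neighbour Hspa1a was at 91.4 and 199 CPM (1.12), and reads may be shared between the pair. Hsph1, an Hsp110 co-chaperone, was at 74.5 and 186 CPM (1.32), and Hspb1, the small chaperone Hsp27, at 13.2 and 32.0 (1.28). Constitutive chaperones were less far apart than these 4 genes, with ratios of 0.35 for Hspa8 and 0.21 for Hsp90ab1. Dnajb1, another heat-inducible gene, had 0.20. All 3 ratios lay above the median of all genes, -0.20. Genes of other stress programmes had 0 members 2-fold apart. The median was -0.01 for the 28 genes of the unfolded protein and integrated stress response and -0.01 for the 28 immediate early genes, with 22 of 28 above the median of all genes in each, and -0.16 for the 25 p53 targets, with 16 above.

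Natural killer cell receptors were higher in PBS-HPS1. Of 25 compared NK and cytotoxic genes, 4 were at least 2-fold higher (16%, against 1.97% of all genes) and 0 lower, with a median of 0.20, and all 4 lie in the NK receptor cluster of chromosome 6. Klra8, the activating receptor Ly49H, was at 3.55 CPM in PBS-WT and 11 in PBS-HPS1, a ratio of 1.62 (1.44 to 1.83), and Klrc2, the activating receptor NKG2C, at 4.44 and 10.7 (1.26). The Ly49 genes are close copies that can share reads. Of the other listed genes, Prf1, perforin, was at 24.3 and 47.5 CPM (0.97) and Ncr1, the NK cell receptor NKp46, at 7.09 and 12.9 (0.86). Gzmb, granzyme B, was at 36.1 and 35.2.

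The other genes among the 15 highest did not belong to one group. Apold1, an early-response gene of endothelium, was at 13.8 and 41.9 CPM (1.60), Npr3, the clearance receptor for natriuretic peptides, at 13.1 and 38.5 (1.56) and Slc5a3, a myo-inositol transporter that hypertonicity induces, at 5.02 and 15.2 (1.59). The last had a ratio of 1.27 after the correction for length and GC content. Classes other than protein-coding genes did not all differ from the shares of all genes, 1.97% higher and 2.99% lower. Of 2680 genes of the TEC class, which the annotation marks as awaiting experimental evidence, 160 were compared. Of these, 32 were 2-fold higher (20.0%) and 2 lower (1.25%). Of 1507 small nucleolar RNAs, which guide the modification of other RNAs, 15 were compared, and 6 were higher (40%) and 0 lower. Most genes of both classes were below the filter, which a gene could pass through the library where it was higher. With 1 CPM required in both libraries, 122 of the 281 higher and 203 of the 427 lower genes of all classes remained. The shares of the 2 classes therefore do not show a difference between classes. Of 192 processed pseudogenes, 2 were higher (1.04%) and 8 lower (4.17%), near the shares of all genes. The sum of all TEC genes was 524 CPM in PBS-WT and 712 in PBS-HPS1. PBS-HPS1 also had reads on more genes, and 3 reads weighed less there.

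Genes of ILC2s differed little between the PBS libraries. Of 26 compared, 1 was at least 2-fold higher and 0 lower, and the median was -0.09, against -0.20 for all genes. The exception was Calca, the precursor of the peptide CGRP, which had 93 reads in PBS-WT and 614 in PBS-HPS1 (2.35, 2.06 to 2.71) and which pulmonary neuroendocrine cells also make. Gata3 had a ratio of 0.03, Il1rl1 -0.04 and Icos -0.05, while Thy1 had -0.57. The type 2 cytokine genes were near the lower limit for comparison. Il5 had 46 reads in PBS-WT and 105 in PBS-HPS1, or 0.590 and 1.06 CPM, a ratio of 0.82 (0.33 to 1.38), and Il13 had 64 and 142 reads, or 0.821 and 1.43 CPM, a ratio of 0.79 (0.37 to 1.25). Both intervals lie above the median of all genes by counting error alone, and neither gene was 2-fold apart with TMM factors. With total counts both were, at 1.06 for Il5 and 1.03 for Il13, and 3 of 27 compared ILC2 genes were 2-fold higher. Ptgdr2, which encodes the prostaglandin D2 receptor CRTH2, was under 1 CPM in both (0.667 and 0.818). Chil1, the gene of the chitinase-like mediator CHI3L1, was at 49.5 and 26.1 CPM, a ratio of -0.92. By real-time PCR, the study reported more CRTH2 and CHI3L1 mRNA at baseline in sorted ILC2s of Hps1-/- mice. It also reported more CHI3L1 in their culture supernatant. The Chil1 ratio here, from 1 library per group, had the opposite direction, and the reason was not tested.

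Genes of the trafficking complexes themselves were not otherwise far apart. The list held genes for BLOC and AP-3 subunits, Rab32, Rab38, Lyst and Vps33a. Of its 22 compared members, Hps1 alone was 2-fold lower, and the median was -0.30. Rab32, a target of BLOC-3, was at 99.8 and 75.8 CPM (-0.40), and Rab38 was under 1 CPM in both. Lysosomal genes had a median of -0.42 over 43 genes, and 34 lay below the median of all genes. Ppt1, palmitoyl-protein thioesterase, was the 1 member at least 2-fold lower, at 400 CPM in PBS-WT and 143 in PBS-HPS1, a ratio of -1.48 (-1.51 to -1.45). Ctss, a cathepsin of antigen-presenting cells, had -0.61 and Mcoln1, the lysosomal calcium channel, 0.07.

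Around Hps1, 141 genes within 10 Mb were compared. At least 2-fold lower were 9 (6.38%, against 2.99% of all genes) and 1 was higher. Of the 9, Ifit1, Ifit3, Ifit3b, Ifit1bl1 and Ifit1bl2 form the interferon-inducible cluster described above and Opalin is a myelin gene. The others were Hps1, Sfxn2, a mitochondrial carrier (18.9 and 5.95 CPM, -1.67), and the serotonin receptor Htr7 (1.74 and 0.636 CPM). The higher gene was Pyroxd2 (ENSMUSG00000060224, minus strand from 42725858 to 42752775), which lies next to Hps1 on the same strand. It had 122 reads in PBS-WT and 1034 in PBS-HPS1, or 1.57 and 10.4 CPM, and its ratio of 2.72 (2.47 to 3.02) was the highest of all protein-coding genes with at least 10 CPM.

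The bleomycin libraries, which share no library with the PBS pair, gave a second genotype comparison. Of 13470 genes compared in both pairs, 743 (5.52%) passed 2-fold upward in the knockout library given bleomycin, relative to BLEO-WT, and 1298 (9.64%) downward. Of the 166 genes higher in PBS-HPS1 among them, 83 (50%) were higher in the bleomycin pair too and 22 (13.3%) were lower. Of the 294 lower genes, 43 (14.6%) were lower in both pairs and 69 (23.5%) were higher with bleomycin. The bleomycin pair has a length dependence of the opposite sign (rho -0.367) and a strong one on GC content (0.609). After the correction for both, 71 genes were higher and 43 lower in both pairs, and 73 were opposite.

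Hps1 had the ratios -1.20 with PBS and -1.18 with bleomycin, and the neighbouring Pyroxd2 had 2.72 and 1.27. Sfxn2, also on chromosome 19, had -1.67 and -1.37. Among genes with at least 10 CPM in each pair, the smaller of the 2 ratios was widest for Igkv3-4 (5.45 and 4.87), followed by the processed pseudogene Gm12191 (-2.58 and -2.78) and the ribosomal protein pseudogene Rpl3-ps1 (-1.97 and -1.79). Pseudogene counts are uncertain, as reads can be shared with the parent gene. S100a9 (-2.25 and -1.48), Cd163l1, a scavenger receptor of gamma delta T cells (-1.61 and -1.47), Cxcr2 (-1.45 and -1.74) and the iron exporter Slc40a1 (-1.55 and -1.42) were lower in both. Higher in both were Igha (1.43 and 3.10) and Cygb, a globin of fibroblasts (1.29 and 3.14). Matrix genes had a median of 0.74 with PBS and 1.53 with bleomycin. Neutrophil genes had a median of -1.30 with PBS and of -0.80 with bleomycin, where 11 of 26 were at least 2-fold lower and 2 higher, and Ngp had -4.70 and 0.43. Some PBS differences were not seen with bleomycin: Hsph1 had 1.32 and -0.37, and the median of the ISGs was -0.67 and 0.34. Whether the genotype difference itself changes with bleomycin cannot be tested with 1 library per group.

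**Figure D5:**
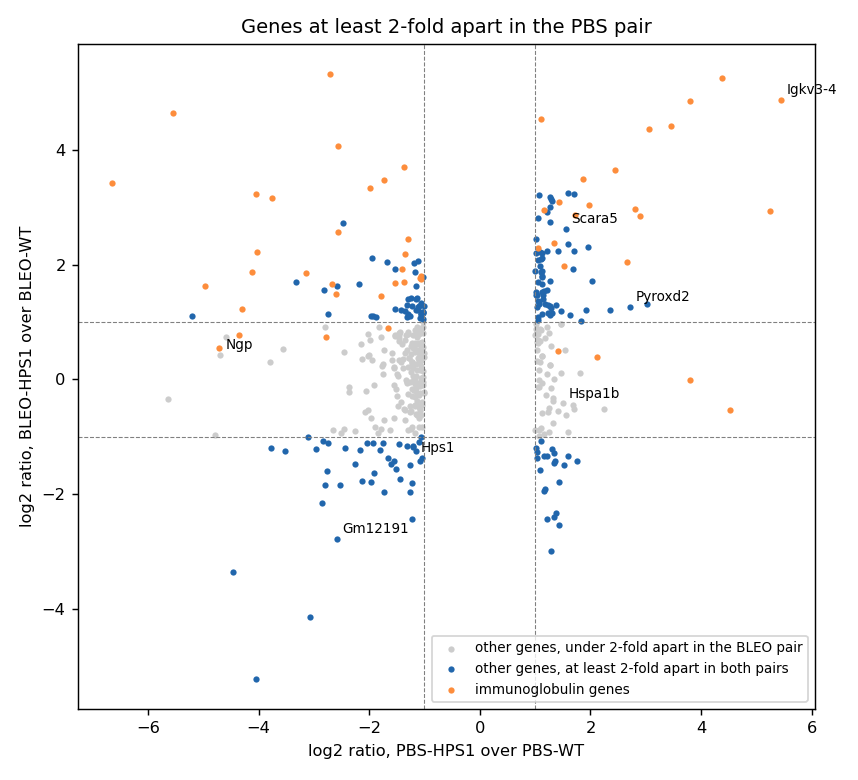
Log2 ratio of PBS-HPS1 over PBS-WT (x axis) and of BLEO-HPS1 over BLEO-WT (y axis) for the genes compared in both pairs that were at least 2-fold apart with PBS, with 1 point a gene and dashed lines at 2-fold. On the right, 83 of 166 genes lie in the upper corner, while on the left 43 of 294 lie in the lower corner and 69 in the upper one.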

How the data were processed

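RNA of ILC2s sorted from mouse lungs was sequenced in 4 groups of 1 library. The SMARTER method, which amplifies cDNA from small inputs, was used on total RNA. The authors deposited unnormalized read counts for Ensembl gene identifiers; the aligner, counter, build and annotation are not given in the sources used here, nor is the handling of strand and of multi-mapped reads. Of 49315 identifiers, 49056 were in GENCODE M21 (GRCm38), from which positions, classes and median transcript length and GC content were taken.

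Total counts were 72513619 and 77703133 in the WT and HPS1 libraries given PBS and 87638154 and 77428740 in those given bleomycin, and TMM factors over the 4 libraries (edgeR 4.0.16, R 4.3.3) were, in that order, 1.08, 1.27, 0.895 and 0.816. Genes with at least 1 CPM in either PBS library were compared by log2 CPM with a prior count of 2, and a gene counted as apart at 2-fold or more. With 1 library per group no model could be fitted and no test was run. Intervals at 95% are exact Clopper-Pearson bounds of the read share (scipy 1.17.1), and since PCR copies are counted as separate reads, neither these bounds nor the floor of 3 reads covers more than counting error. Ratios were also corrected by loess (span 0.3) on length and GC content. The steps were tested on simulated data.

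The libraries, the lists and the genes to describe were chosen with earlier results of these data known, and 5 of the 47 lists (nervous system and heat shock genes) after these values were seen. Genes named are the targeted complex, the sort antigens, the 15 highest and 15 lowest protein-coding and the 5 highest and 5 lowest other genes that reached 10 CPM in a PBS library, the 10 widest in both pairs, genes without a read in 1 library, those near Hps1, the study's matrix genes and mediators, and for each list its most abundant and extreme members. Other list members named were chosen after their values were seen. Alternatives were other scalings (among them DESeq2 1.42.0 size factors), prior counts of 0.5 and 10, other filters, a 4-fold threshold, the loess corrections and protein-coding genes alone. Areg is not analysed here.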

Additional observations from a re-analysis of the deposited data

Results flagged for a closer look

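The difference between the genotypes in MHC class II genes had opposite signs in the PBS and the bleomycin libraries. Relative to the median of all genes, the 11 genes lay at -0.64 on the log2 scale in the PBS pair and at 0.87 in the bleomycin pair, so the medians were 1.51 apart. The change of sign was not particular to these genes. Immunoglobulin genes lay at -0.30 and 2.61 and cytosolic ribosomal protein genes at -0.27 and 0.86, whereas matrix genes other than collagens kept their sign, at 0.94 and 1.57. None of these values is corrected for length and GC content, on which ratios of the bleomycin pair depend. H2-Ab1 went from 2073 CPM in PBS-WT to 1072 in PBS-HPS1, and from 3634 to 6406 CPM between the genotypes after bleomycin. Cd74 was at 4391 and 2353 CPM with PBS and at 6958 and 11397 CPM with bleomycin. With 1 library per group the difference was not tested, and the number of cells sequenced, the treatment and the library cannot be told apart.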

How the results depend on the processing

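No paired analysis was possible because each group has 1 library, and for the same reason leaving out a replicate was not run. The count of genes at least 2-fold apart, 708 as reported, was 8710 with no filter beyond 1 read, 325 with at least 1 CPM in both libraries, 156 with at least 10 CPM in either and 175 at 4-fold. The 281 higher genes became 613 with total counts, 461 with upper-quartile factors, 6769 without the filter, 122 with at least 1 CPM in both libraries, 43 with at least 10 CPM, 32 at 4-fold and 154 among protein-coding genes. The 427 lower genes became 1941 without the filter, 203 with at least 1 CPM in both, 113 with at least 10 CPM and 143 at 4-fold. A lower filter tests more genes and a stricter one fewer, and a 4-fold threshold takes fewer by construction. Total counts and upper-quartile factors shift the ratios and also let other genes pass the CPM filter, with 14674 and 14317 compared against 14283. All 281 higher genes remained under both, and 283 and 307 of the 427 lower ones. The Hps1 ratio of -1.20 was -0.96 with total counts and -1.03 with upper-quartile factors. DESeq2 factors, TMM factors from the PBS libraries, both prior counts and the 3 loess corrections left the count of 708 within 1.5 times. No ratio of a named gene past 2-fold changed sign under any alternative run. Depth limits genes near 1 CPM, such as Il5, where few reads set a ratio.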

Other observations

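Mitochondrially encoded genes had a median of -0.37 over 21 compared genes, and their summed level was 18444 CPM in PBS-WT and 14083 in PBS-HPS1, with 8521 and 5613 CPM in the WT and HPS1 libraries after bleomycin. Proteasome subunit genes had a median of -0.43 over 38 genes, with 37 below the median of all genes and 0 past 2-fold, and cell cycle genes -0.46 over 40. The cholesterol synthesis genes and the NRF2 antioxidant genes had medians of -0.22 and -0.20, near that of all genes. Of the T cell receptor genes, 5 of 11 joining segments were at least 2-fold higher in PBS-HPS1 (45.5%, against 1.97% of all genes). At least 2-fold lower were 6 of 32 variable segments (18.8%, against 2.99%). Such segments can share reads. Of 70 joining and 144 variable segments only these 11 and 32 passed the filter, which a segment could do through the library where it was higher.

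Among genes without a read in PBS-WT, those with the most reads in PBS-HPS1 were Gm42777 with 39, 4930589P08Rik with 33 and Gm32390 with 31. Against 3 reads per library, they were at least 10.2-fold, 8.66-fold and 8.14-fold higher in PBS-HPS1. Without a read in PBS-HPS1, after Hapln2, were the variable segment Ighv3-4 with 29 reads in PBS-WT and the trypsinogen Prss2 with 26. Pnliprp1, a pancreatic lipase-related gene on chromosome 19, was lower in both genotype pairs, with ratios of -4.04 and -5.22.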
